A study of Solanum lycopersicum with 18 samples.

Results

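The m6A peaks of wild-type tomato pericarp at 42 DPA (days post-anthesis), the breaker stage at which ripening becomes visible, are set here against those at 39 DPA, the mature green stage, with 3 peak lists for each stage. Joining peaks of the 6 lists that overlapped by 1 bp or more gave 11278 regions on 10522 genes, out of 11176 genes named in the 9 lists of the whole series. A peak was present in all 6 lists in 8550 regions, in all 3 lists of 42 DPA and none of 39 DPA in 134 regions, and in all 3 lists of 39 DPA and none of 42 DPA in 339 regions. The other 2255 regions had a peak in some lists of a stage only. All fruits were of the cultivar Ailsa Craig, grown in a greenhouse, with no treatment and no transgene. The material was pericarp, the fruit wall, and each RNA sample was a pool of many fruits, so that differences between single fruits are not seen. The samples of the *Cnr* mutant at 42 DPA, which complete the series, enter only where stage-specific regions were looked up in them.

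m6A is a methyl group on adenosines inside mRNA. In plants it is written by a complex of methyltransferases, removed by demethylases of the ALKBH family and read by proteins that bind it, and it is concentrated near stop codons and in 3′ UTRs. It is known to bear on the stability and the translation of transcripts. In ripening tomato fruit the DNA demethylase SlDML2 removes cytosine methylation from promoters, ethylene is perceived by receptors such as NR (Never-ripe), and MADS-box factors such as FUL2 act in the transcriptional control of ripening.

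Primers of the study for immunoprecipitation followed by qPCR mark stretches of transcripts in which m6A was tested, also on Solyc05g053540 and Solyc02g089800. Given here are those of SlDML2, NR and FUL2, which act in ripening, and of Solyc08g067050, an arginine N-methyltransferase gene. They are shown because the results return to these transcripts, and each runs 5′ to 3′.
SlDML2 forward: cctgaacatagctaccc
SlDML2 reverse: ttaccgactggaatagaact
NR forward: gtcatcctcctgaaatgttcc
NR reverse: ccagtatctctaacctggacac
FUL2 forward: caaagcaggttaaggaaaggg
FUL2 reverse: gagatgatcatgactctgttgctc
Solyc08g067050 forward: cacactgacgagagcaggtagc
Solyc08g067050 reverse: ggactggtaggtcagcatgatg

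The study also replaced a putative m6A site in the 3′ UTR of SlDML2. The first bases of the reverse complement of the SlDML2 reverse primer overlap the last bases of the primer that carried the replaced base, and the base that differs is in capitals in both.
SlDML2 reverse primer, reverse complement: Agttctattccagtcggtaa
SlDML2 primer for the replaced site: caatatcatgtCgttctattccagtcgg
Over 17 shared bases the primers differed at 1 position, A1C, counted from 1 at the 5′ end of the reverse complement.

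Each deposited list gives the fold enrichment of immunoprecipitated (IP) fragments over input at a peak summit, which is used here as the m6A enrichment. The lists of 42 DPA held 9760, 9946 and 9246 peaks and those of 39 DPA held 10407, 9743 and 10225, a mean of 9651 ± 363 against 10125 ± 343 (SD, n = 3 each, exact two-sided permutation p = 0.3, where 0.1 is the smallest that 3 against 3 lists can give). Median enrichment was 5.41 ± 0.337 at 42 DPA and 5.36 ± 0.278 at 39 DPA (SD, n = 3 each, exact permutation p = 1). The share of summits within the coding sequence was 7.19% ± 0.0379 at 42 DPA and 7.78% ± 0.625 at 39 DPA (SD, n = 3 each, exact permutation p = 0.1, 0.45 after BH adjustment over 9 measures). The share centred on an intron was 5.85% ± 0.115 at 42 DPA and 6.11% ± 0.123 at 39 DPA, with the same p-values. In both shares the 3 lists of 42 DPA lay below those of 39 DPA, and 3 against 3 lists cannot reach a p under 0.05. Over the 8550 shared regions, log2 enrichment correlated with an r of 0.964 to 0.987 within a stage and of 0.908 to 0.934 between stages, a description across regions. Replicate 3 of 42 DPA stood lowest, with a median of 5.48 over these regions, against 6.14 to 6.79 in the other lists.

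The IP number and the background of each summit were recovered from its enrichment and p-value, and the background is given below as a multiple of the library's floor, the lowest background that the peak caller allows. The floor was 47.6 to 50.9 fragments in the lists of 42 DPA and 49.7 to 51.1 in those of 39 DPA, and 40.2% to 43.1% of the summits of a list lay on it. There the enrichment follows the IP number alone, and a change of m6A and a change of transcript level cannot be told apart. Above the floor the background follows the input around the summit, as the peak caller took it, and is read below as an input level. The stretch that it covers is not given in the lists, so input of neighbouring genes can enter it. In bulk tissue, fewer cells that hold a transcript and less of it per cell also cannot be told apart.

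The 3 lists of a stage carried what looks like 1 input. Where 2 lists of the same stage had a summit at the same base, their input levels were within 1% of each other, after centring on the pair's median, at 48.9% to 92.5% of the summits, over 6 pairs of lists. Counting error alone would put 6.77% to 7.34% of them within 1%, if each number had been counted in a separate library. Between stages the share was 1.95% to 7.95%, over 9 pairs. IP levels at the same summits differed by a median of 3.74% to 7.98% within a stage, input levels by 0.486% to 1.30%. The labels give each replicate an input of its own, and how a shared background came about was not tested. Input was therefore counted as 1 value per stage and compared with no test. The spread between the lists of a stage, and every p-value below, thus covers mainly the IP libraries and little spread of separate inputs. Where the lists of a stage differ in background, as in Solyc01g091690 below, that difference enters the spread too.

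Of the 8550 regions, 132 rose at least 1.5-fold at 42 DPA and 257 fell at least 1.5-fold, with a p under 0.05 in limma. These are 1.54% and 3.01% of the regions tested, and they lie on 143 and 292 genes. The median change was 0.72 among the regions that rose and −0.71 among those that fell, on the log2 scale, against −0.048 over all regions. The 3 values of 42 DPA lay wholly above those of 39 DPA in 131 of the 132 and wholly below them in 251 of the 257. The stages likewise did not overlap in 10% of all regions upwards and 18% downwards. At a BH-adjusted p under 0.05 with no fold minimum, limma called 457 regions higher (5.35%) and 856 lower (10%). Since limma estimated 1 spread for all regions, every change has the same standard error of 0.139 on the log2 scale and the fold minimum alone sets the calls. With each list centred on its median the split became 182 higher and 178 lower. All 132 rises and 178 of the falls were among these. Without replicate 3 of 42 DPA, 218 regions were called higher and 173 lower, so that the excess of falls became an excess of rises. At the edge of the threshold, the UDP-glucose 4-epimerase transcript Solyc08g080570, just inside, had 4.64, 4.87 and 3.79 at 42 DPA against 2.95, 2.79 and 3.08 at 39 DPA. Solyc11g008380, just outside, had 5.64, 5.80 and 5.15 at 42 DPA against 3.58, 3.70 and 3.79 at 39 DPA.

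The highest rise was that of Solyc01g108800, whose deposited GO term is 3-hydroxyisobutyryl-CoA hydrolase activity, a step of valine breakdown (chromosome 1, 95902784 to 95903184 of SL3.0, over the stop codon). Its enrichment was 12.4, 12.4 and 10.4 at 42 DPA against 3.46, 3.80 and 4.32 at 39 DPA, a 3.04-fold rise (BH-adjusted p = 1.9e-27, limma). All lists of 42 DPA were above all lists of 39 DPA, a separation required of the 10 highest rises and 10 deepest falls. Its input level was 1.49 at 42 DPA and on the floor at 39 DPA, so that the IP level differed more, by 4.51-fold. The region shared by a pentatricopeptide repeat gene, Solyc04g072150, and an HSP20-like chaperone gene, Solyc04g072160, followed with 9.999, 10.03 and 7.60 at 42 DPA against 3.35, 3.39 and 3.35 at 39 DPA. The lists do not say which gene of an overlapping pair the fragments came from.

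Among the 10 highest rises, 3 had an input level above the floor in all 6 lists, and in these the input was lower at 42 DPA. The transcript of 12-oxophytodienoate reductase 3 (Solyc07g007870), an enzyme of jasmonate synthesis, had an enrichment of 5.70, 6.58 and 4.90 at 42 DPA against 2.47, 2.57 and 2.54 at 39 DPA. Its input level was 1.18 at 42 DPA and 6.07 at 39 DPA, and its IP level fell by 1.17 on the log2 scale. Calreticulin (Solyc04g048900), a calcium-binding chaperone of the endoplasmic reticulum, showed the same arrangement. It had 3.41, 4.25 and 3.17 at 42 DPA against 1.59, 1.76 and 1.64 at 39 DPA, with input levels of 1.9 at 42 DPA and 9.94 at 39 DPA. Cysteine synthase (Solyc01g094790), which makes cysteine from O-acetylserine, had 4.09, 3.18 and 3.58 at 42 DPA against 1.84, 1.64 and 1.70 at 39 DPA, over an input of 1.96 at 42 DPA and 6.32 at 39 DPA. In each of these transcripts fewer fragments were immunoprecipitated at 42 DPA, and the input was lower by a larger factor. Of the other 7, 4 lay on the floor in all 6 lists, among them Bifunctional nuclease 1 (Solyc12g089220), with 9.45, 8.97 and 7.56 at 42 DPA against 3.48, 3.97 and 4.58 at 39 DPA.

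The deepest fall lay on a cluster of heat shock genes on chromosome 3 (53779807 to 53780300), where Solyc03g082395, a putative RNA-binding protein gene, and heat shock protein genes Solyc03g082400, Solyc03g082410 and Solyc03g082420 share a region. Enrichment was 3.88, 4.09 and 3.72 at 42 DPA against 15.8, 19.5 and 17.9 at 39 DPA, and fell 4.54-fold. The stages stood far apart, yet the IP level fell by only 0.31 on the log2 scale, while the input level was 6.02 at 42 DPA and 1.63 at 39 DPA. Solyc06g060850, with a GO term of ubiquitin-specific protease activity, was alike, with 6.22, 6.34 and 5.64 at 42 DPA against 16.8, 16.3 and 19.7 at 39 DPA. Its input level was 2.54 at 42 DPA and 1.06 at 39 DPA. These were the only 2 of the 10 deepest falls with an input level in all 6 lists.

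Other deep falls lay on the floor in all 6 lists and are falls of the IP level. Solyc10g076710, with a GO term of phosphatidylinositol phospholipase C activity, which cleaves a membrane lipid in signalling, had 3.53, 3.09 and 3.08 at 42 DPA against 10.9, 11.6 and 13.6 at 39 DPA. Solyc08g067050, an arginine N-methyltransferase gene for which the study had primers, had 3.21, 2.76 and 2.60 at 42 DPA against 8.03, 8.61 and 9.33 at 39 DPA, and fell 3.04-fold. In both the stages were separate by more than the whole range within a stage. Solyc06g071550, with a GO term of anthranilate phosphoribosyltransferase activity, a step of tryptophan synthesis, had 3.67, 3.64 and 3.01 at 42 DPA against 9.94, 8.99 and 11.4 at 39 DPA. The 10 highest rises spanned 2.09- to 3.04-fold and the 10 deepest falls 2.51- to 4.54-fold, and 8 and 7 of them lay over a stop codon.

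**Figure D1:**
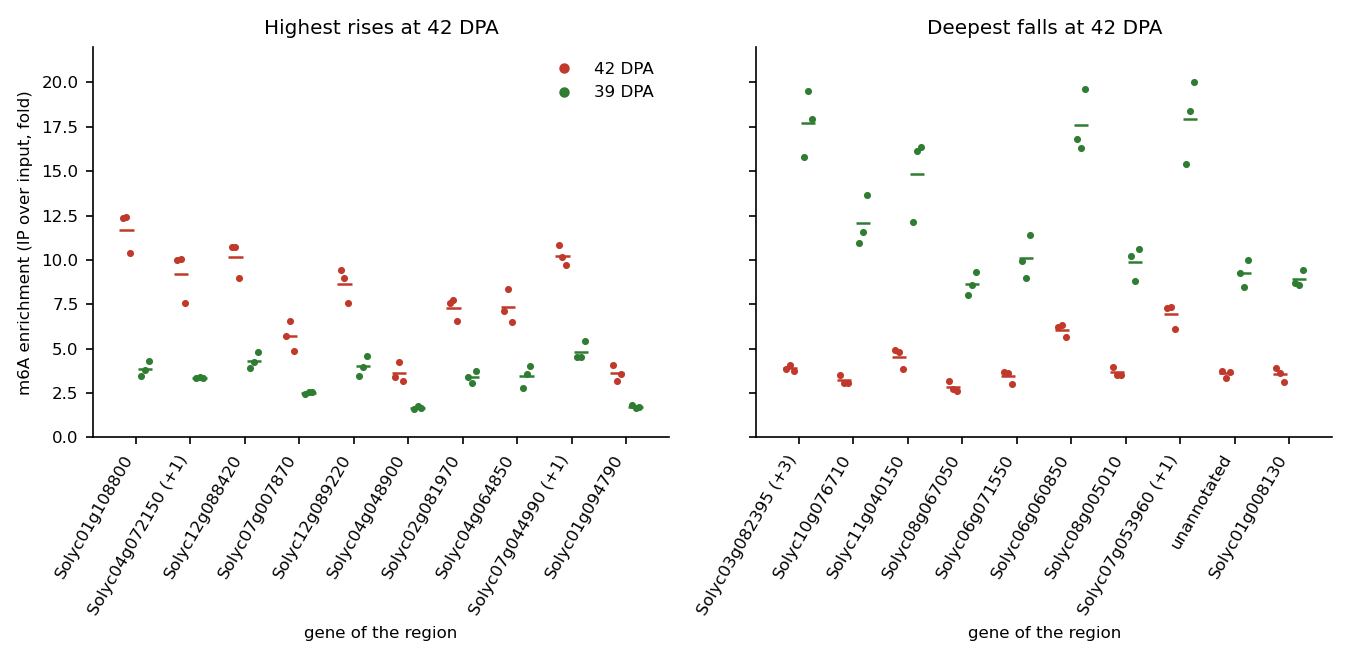
m6A enrichment (IP over input, fold) in each of the 3 lists of 42 DPA and the 3 lists of 39 DPA for the 10 regions with the highest rise (left) and the 10 with the deepest fall (right). Points are lists and bars are means. The regions were picked for stages that do not overlap, and the heat shock region at the left of the falls shows means of 3.90 at 42 DPA and 17.7 at 39 DPA.

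An input level was available in all 6 lists for 4509 regions. It was at least 1.5-fold higher at 42 DPA in 365 of them (8.09%) and at least 1.5-fold lower in 289 (6.41%), with no test. None of the 365 regions with more input rose in enrichment, and 41 of them (11.2%) fell, with a median enrichment change of −0.26 on the log2 scale. Of the 289 regions with less input, 31 (10.7%) rose and 1 fell, with a median of 0.27. Of the 3855 regions in between, 7 rose and 19 fell. Seen from the calls, 31 of the 38 rises with an input level had less input at 42 DPA and 41 of the 61 falls had more. The input is the denominator of the enrichment, so these counts share a measure and are a description. Of the other calls, 58 rises and 146 falls lay on the floor in all 6 lists, and 36 rises and 50 falls lay on it in some.

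The IP level itself was tested in all 8550 regions. Of the 132 rises, it was called higher in 87 and lower in 15, and of the 257 falls, it was called lower in 187 and higher in 17. Among the 8161 regions with no call in enrichment, it was called higher in 282 and lower in 260. The IP level is the numerator of the enrichment, so these counts share a measure and are a description. A fall with more IP fragments is that of Solyc01g091690, an S-adenosyl-L-methionine-dependent methyltransferase gene. Its enrichment was 1.23, 1.53 and 1.28 at 42 DPA against 2.59, 2.65 and 2.37 at 39 DPA. Its IP level was 21.3, 17.9 and 22.5 at 42 DPA against 12.3, 12.6 and 10.8 at 39 DPA, and its input level 15.5 at 42 DPA and 4.68 at 39 DPA. The lists of 42 DPA differed in their input level there, with 17.3, 11.7 and 17.6.

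**Figure D2:**
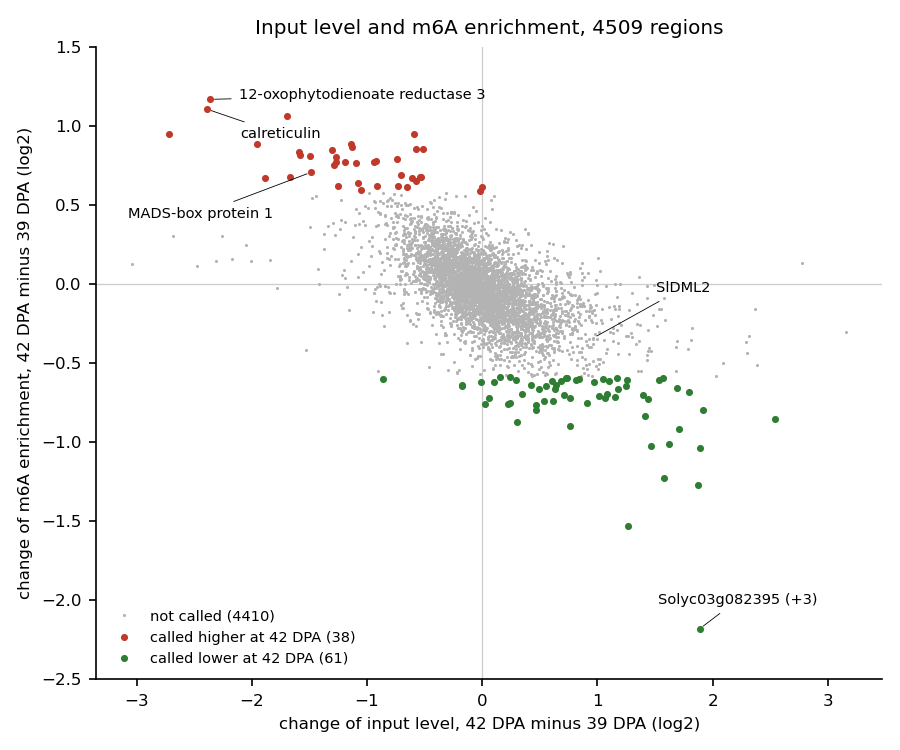
Change of m6A enrichment against change of the input level, both 42 DPA minus 39 DPA on the log2 scale, for the 4509 regions whose background exceeded the floor in each of the 6 lists. Each point is a region, red for the 38 called higher, green for the 61 called lower and grey for the others. The input is part of both axes. SlDML2, at 0.96 and −0.34, lies among the uncalled regions.

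SlDML2 (Solyc10g083630) had 4 regions with a peak in all 6 lists, and none of them passed the test. The region over its stop codon (chromosome 10, 63531361 to 63531671) had an enrichment of 2.88, 3.33 and 2.56 at 42 DPA against 3.71, 3.38 and 3.99 at 39 DPA. All 3 lists of 42 DPA were lower, as in 18% of all regions. The nearest values of the stages differed by little, and the change was −0.34 on the log2 scale (BH-adjusted p = 0.076, limma). Its IP level was 31.6, 36.5 and 28.2 at 42 DPA against 20.9, 19.4 and 22.2 at 39 DPA, while the input level was 11.0 at 42 DPA and 5.63 at 39 DPA. The region thus held 1.54-fold more IP fragments at 42 DPA over 1.95-fold more input. The 3 regions in its coding sequence had changes of −0.01, −0.08 and −0.16 over input levels 1.99- to 2.28-fold higher at 42 DPA. Set against them in the same lists, the stop codon region changed by −0.33, −0.26 and −0.19 relative to each (BH-adjusted p = 0.17, 0.21 and 0.32 over the pairs of regions tested below, limma).

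DNA demethylase 3 and Solyc09g009080, with the deposited GO terms of SlDML2, catalytic activity and DNA repair, lay on the floor. DNA demethylase 3 (Solyc11g007580) had 5.60, 5.47 and 4.76 at 42 DPA against 6.56, 6.56 and 7.81 at 39 DPA, a change of −0.40 (BH-adjusted p = 0.03, limma) that did not reach 1.5-fold. Solyc09g009080 had 3.39, 3.48 and 3.10 at 42 DPA against 7.21, 7.29 and 8.38 at 39 DPA, and fell 2.29-fold. All lists of 42 DPA were below those of 39 DPA in both, as they were in 18% of all regions.

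NR shared its stop codon region with Solyc09g075430, a ribosomal protein L19 gene. The region had 4.41, 4.05 and 3.66 at 42 DPA against 4.69, 4.87 and 5.83 at 39 DPA, a change of −0.34 (BH-adjusted p = 0.075, limma) over an input 1.5-fold higher at 42 DPA. FUL2 (Solyc03g114830) had 5.14, 5.86 and 3.57 at 42 DPA against 5.26, 4.48 and 4.93 at 39 DPA. Here the stages overlapped, with a change of −0.04 that was 0.17 without replicate 3 of 42 DPA. Its neighbour MADS-box protein 1 (Solyc03g114840), of the same family of transcription factors, rose 1.63-fold, with 13.7, 13.6 and 12.1 at 42 DPA against 8.42, 7.46 and 8.27 at 39 DPA (BH-adjusted p = 1.6e-05, limma). Its input level was 1.46 at 42 DPA and 4.08 at 39 DPA, and its IP level fell by 0.77 on the log2 scale. The rise thus came with fewer IP fragments.

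**Figure D3:**
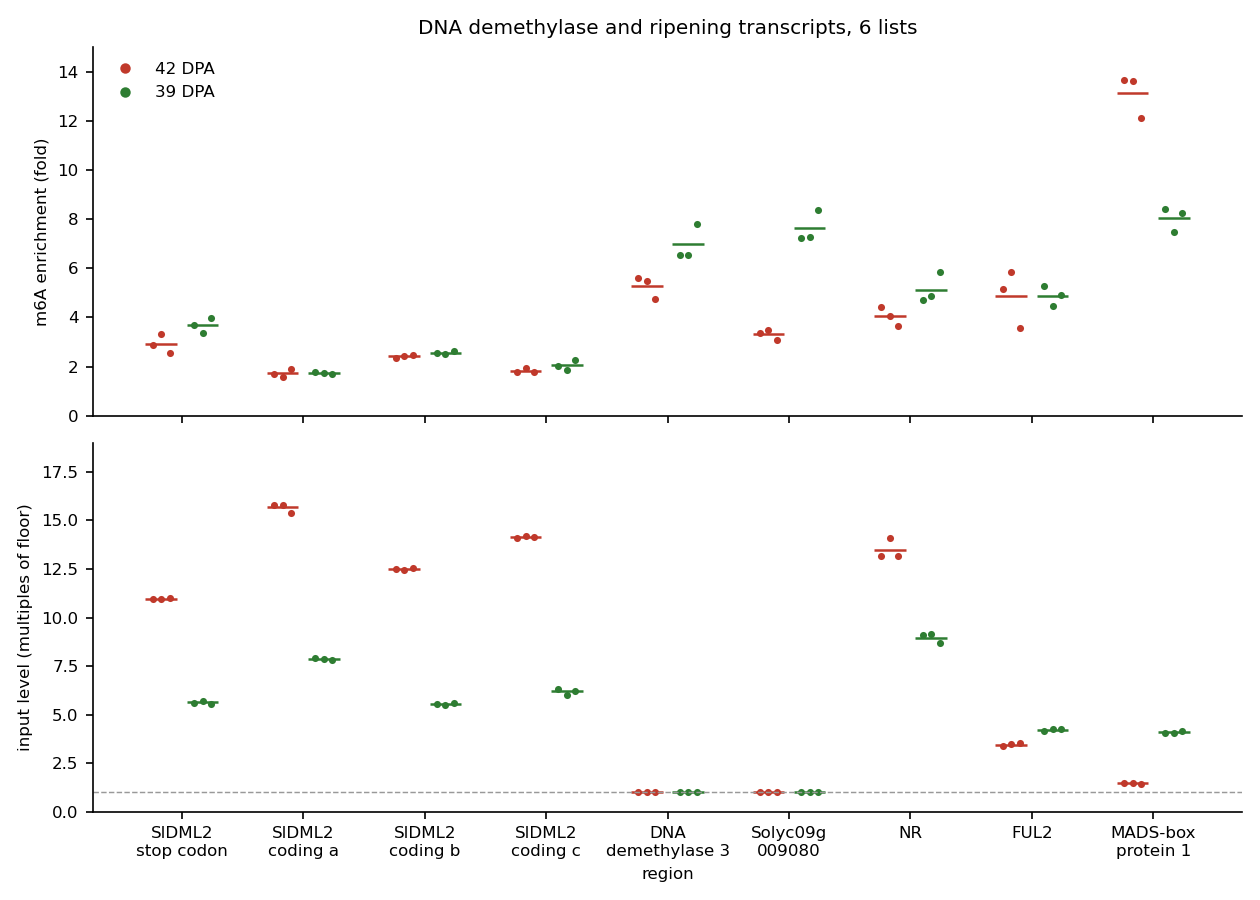
m6A enrichment (top, fold) and input level (bottom, multiples of the floor, which is the dashed line) for regions of DNA demethylase and ripening transcripts. Points are lists, 42 DPA left of 39 DPA, and bars are means. The input levels of a stage nearly coincide. SlDML2 has an input level of 11.0 at 42 DPA and 5.63 at 39 DPA in its stop codon region, and MADS-box protein 1 has 1.46 at 42 DPA and 4.08 at 39 DPA.

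The study names 8 putative RNA demethylase genes, SlALKBH1 to SlALKBH8. On the transcripts of 3 of them a region had a peak in all 6 lists. SlALKBH1 changed by −0.13, SlALKBH3 by −0.35 and SlALKBH5 by 0.10 on the log2 scale, none past the test. SlALKBH5, in a region shared with a neighbouring gene, had 2.61, 3.29 and 2.29 at 42 DPA against 2.51, 2.38 and 2.70 at 39 DPA. SlALKBH6, in a region shared with a kinase gene, was called only at 39 DPA, with 3.50, 3.51 and 3.89, on the floor. All 3 *Cnr* lists also held this peak, at 3.41, 3.22 and 3.97. SlALKBH4 had a region in some lists only, and SlALKBH2, SlALKBH7 and SlALKBH8 had none.

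In carotenoid synthesis, the transcript of 15-cis-zeta-carotene isomerase (Solyc12g098710) was called only at 39 DPA, in a region centred on an intron, with 3.07, 3.45 and 3.76. Zeta-carotene desaturase (Solyc01g097810), which acts next in the route to lycopene, had 6.20, 4.998 and 5.19 at 42 DPA against 8.10, 5.72 and 7.19 at 39 DPA. Its change of −0.35 missed the threshold (BH-adjusted p = 0.068, limma), and its input level was 0.96 higher at 42 DPA on the log2 scale. CTR1-like protein kinase-3 (Solyc09g009090), named for a kinase that represses ethylene responses, had a region over its stop codon that changed by −0.23 and a region in its coding sequence called only at 39 DPA, at 4.20, 3.61 and 3.67. A BZIP transcription factor transcript, Solyc08g061130, differed between its regions, with a change of 0.47 over the stop codon and −0.40 on an intron (BH-adjusted p = 0.0074 and 0.03, limma). Neither reached 1.5-fold, but without replicate 2 of 39 DPA the stop codon region did, at 0.60.

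The lists of identifiers for DNA methylation, m6A enzymes, ethylene, ripening factors, carotenoids, cell wall and light regulators held 97 genes. Of these, 57 had a region in some list and 45 a region in all 6. Among their 52 regions, 2 rose (3.85%, against 1.54% of all regions) and 1 fell (1.92%, against 3.01%), with a median change of −0.13 on the log2 scale, against −0.048 over all regions. These were MADS-box protein 1 and Solyc05g053410, a gene with a GO term of phosphorelay sensor kinase activity (6.54, 6.81 and 5.63 at 42 DPA against 3.60, 2.88 and 3.85 at 39 DPA), and Solyc09g009080. Of the 57 genes with a region, 1 had a region at 42 DPA only and 3 at 39 DPA only. Over all 10522 genes with a region these were 136 and 336 genes.

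Genes were also grouped by deposited GO terms, and the calls of each group are read against the 1.54% of all regions that rose and the 3.01% that fell. Of 274 regions on genes for ribosome structure, 1 rose (0.365%) and none fell, with a median change of 0.067. The riser was the region of Ribosomal protein S8 (Solyc03g121370), shared with a gene for a charged multivesicular body protein, with 5.01, 5.04 and 4.11 at 42 DPA against 3.09, 2.74 and 3.01 at 39 DPA. Of 20 regions on photosynthesis genes none was called, where the shares over all regions would give fewer than 1 either way, and their median was 0.18. Of the 17 with an input level, 6 (35.3%, against 6.41% of all regions) had at least 1.5-fold less input at 42 DPA. Solyc10g007690, with a GO term of light harvesting, had 4.65, 5.62 and 3.69 at 42 DPA against 3.38, 3.27 and 3.26 at 39 DPA, over an input level of 2.03 at 42 DPA and 4.35 at 39 DPA. Its change of 0.47 did not reach 1.5-fold.

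Of 56 regions on genes with a methyltransferase term, 2 rose (3.57%) and 7 fell (12.5%, against 3.01% of all regions). Besides Solyc08g067050, the fall of Solyc12g099560, also annotated to protein methylation, was to 3.63, 3.42 and 3.33 at 42 DPA against 6.92, 7.46 and 8.54 at 39 DPA. A riser was the gene for 2-phytyl-1,4-beta-naphthoquinone methyltransferase (Solyc12g019010), which acts in phylloquinone synthesis, with 9.52, 10.7 and 8.47 at 42 DPA against 4.35, 5.58 and 5.80 at 39 DPA. Transcription factor genes had 86 regions, of which 3 rose (3.49%) and 6 fell (6.98%). Protein kinase genes had 306, of which 5 rose (1.63%) and 10 fell (3.27%), shares near those of all regions, with the deepest fall on the region of mitogen-activated protein kinase 14 (Solyc04g007710, shared with Solyc04g007705), at 5.17, 4.07 and 3.64 at 42 DPA against 9.11, 8.09 and 11.5 at 39 DPA. Ubiquitin transfer genes had 70 regions, of which 3 fell (4.29%) and none rose, and DNA repair genes 22, of which 2 fell (9.09%) and none rose. The DNA repair term is also that of SlDML2, with 4 shared regions, DNA demethylase 3 and Solyc09g009080, described above. Of the 8 DNA repair regions with an input level, 6 (75%, against 8.09% of all regions) had at least 1.5-fold more input at 42 DPA. The GO groups hold only the 67.1% of genes that carry a term, and no group was tested as a set.

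Most shared regions, 6109 of 8550 (71.5%), lay over a stop codon, and enrichment there was highest, with a median of 6.92 at 42 DPA and 7.15 at 39 DPA. Of these, 94 rose and 187 fell. Regions beginning in the 3′ UTR numbered 1253, of which 23 rose and 39 fell. Of the 398 regions within the coding sequence none rose and 8 fell, with a median enrichment of 2.40 at 42 DPA and 2.60 at 39 DPA. The 367 regions centred on an intron had 8 rises and 10 falls. Of the 53 regions beginning in the 5′ UTR none rose and 1 fell, of the 77 beginning upstream of the transcript 1 rose and 1 fell, and of the 293 outside annotated genes 6 rose and 11 fell. By position, 0% to 2.18% of the regions rose and 1.30% to 3.75% fell, against 1.54% and 3.01% over all regions.

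Regions called at a single stage were weak. The stop codon held 77 of the 134 only at 42 DPA (57.5%) and 163 of the 339 only at 39 DPA (48.1%), shares that were not tested against that of the shared regions. Median enrichment was 3.03 for the regions only at 42 DPA and 2.96 for those only at 39 DPA, against 6.24 for the shared regions. It was under 3 in 63 of the 134 and 179 of the 339, and 5 or more in 8 and 15. The background lay on the floor in 47.0% of the regions only at 42 DPA and in 69.0% of those only at 39 DPA. The number of such regions depended on single lists. Without replicate 3 of 42 DPA there were 235 only at 42 DPA, and without replicate 2 of 39 DPA there were 519 only at 39 DPA. The calls within a list follow its peak threshold, so a region of a single stage can hold a weaker peak, not called, at the other.

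**Figure D4:**
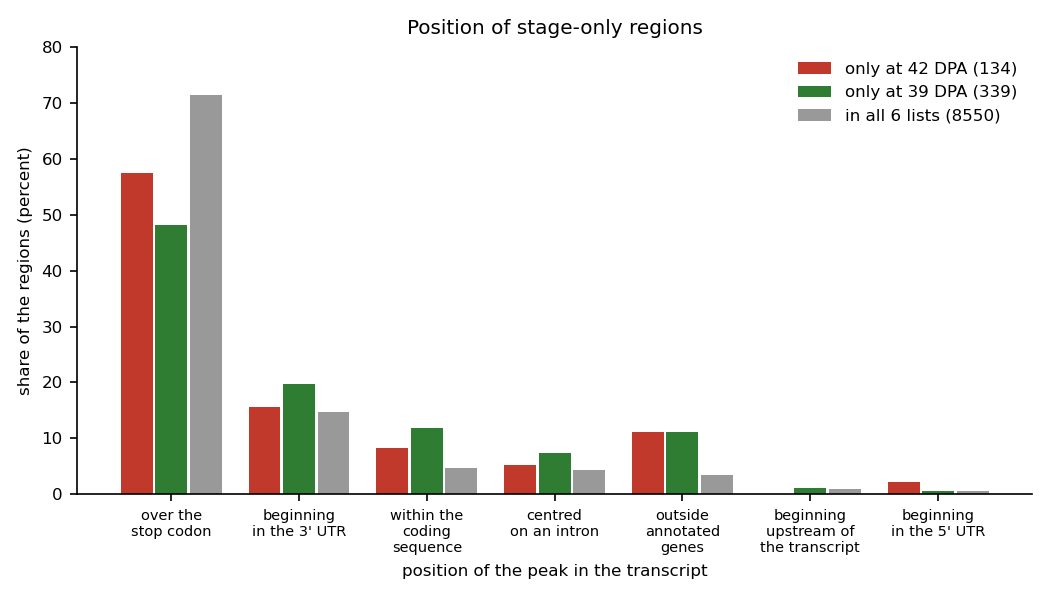
Share of regions by position in the transcript, for the 134 regions called only at 42 DPA (red), the 339 called only at 39 DPA (green) and the 8550 regions in all 6 lists (grey). The stop codon holds 57.5% of the regions only at 42 DPA, 48.1% of those only at 39 DPA and 71.5% of the shared ones.

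The strongest region only at 42 DPA lay on Solyc01g005280, with 9.31, 8.85 and 7.09, and the next on its neighbour Solyc01g005290, with 8.50, 8.54 and 7.75. Both were on the floor, and neither was called in *Cnr*. Solyc12g099810 and Solyc04g011540 followed, with medians of 6.86 and 6.14 at 42 DPA, and both were also called in the 3 *Cnr* lists. Next came the transcript of bHLH transcription factor 058 (Solyc09g063010), with 6.04, 6.73 and 5.09 at 42 DPA only and no peak in *Cnr*. Only at 39 DPA, the strongest region lay on Solyc03g026200 and Solyc03g026210, of which Solyc03g026210 has GO terms of 4-hydroxy-tetrahydrodipicolinate reductase and lysine synthesis. The region had 6.63, 8.57 and 8.64. Solyc11g071620, with a GO term of iron ion binding, had 7.54, 8.46 and 9.66, and was also called in the 3 *Cnr* lists. Of the 134 regions only at 42 DPA, 51 (38.1%) had a peak in all 3 *Cnr* lists of 42 DPA and 62 (46.3%) in none. Of the 339 only at 39 DPA, 161 (47.5%) had a peak in all 3 *Cnr* lists and 133 (39.2%) in none, against 91.8% and 2.29% of the shared regions. The gene also held a shared region, at any distance, for 17 of those only at 42 DPA (12.7%) and 53 of those only at 39 DPA (15.6%). These shares were not compared with those of other genes. Within 500 bp of a shared region lay 7 of those only at 42 DPA and 26 of those only at 39 DPA.

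Where a transcript has several regions, they share its level, and their difference was tested within lists. That level can cancel in the difference only where both regions lie above the floor. The strongest region of each transcript was set against each of its others in 704 pairs, and the difference changed at least 1.5-fold with a p under 0.05 in 68 pairs (9.66%), upwards in 37 and downwards in 31. In 59 of the 68 (86.8%), the 2 regions changed with opposite signs, as did those of 314 of all 704 pairs (44.6%). Pairs called for a large difference favour opposite signs, so this is a description. With both regions above the floor in all 6 lists there were 334 pairs, of which 23 were called, 16 upwards and 7 downwards, and 20 of these had opposite signs. Mannose-6-phosphate isomerase (Solyc06g060100), an enzyme at the entry to mannose metabolism, was the 1 gene with a region that rose and a region that fell. Its stronger region had 9.68, 10.3 and 8.54 at 42 DPA against 5.42, 5.39 and 6.08 at 39 DPA. Its weaker region, on the floor, had 2.95, 3.29 and 2.62 at 42 DPA against 4.51, 4.08 and 5.01 at 39 DPA. The ratio of the regions was thus 2.59-fold higher at 42 DPA (BH-adjusted p = 5.1e-06, limma). With a region on the floor, a change of transcript level and a change of m6A cannot be told apart in this pair.

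Beside the heat shock cluster, a second region of Solyc03g082395 had 17.1, 16.5 and 16.6 at 42 DPA against 17.3, 18.9 and 22.1 at 39 DPA, a change of −0.21 on the log2 scale, where the shared region fell by 2.18. Solyc07g053960, a putative ubiquitin conjugating enzyme gene, had a region shared with Solyc07g053970 at 7.32, 7.37 and 6.13 at 42 DPA against 15.4, 18.4 and 20.02 at 39 DPA. Its other region had 6.01, 5.999 and 5.13 at 42 DPA against 5.16, 5.51 and 5.65 at 39 DPA, with the stages overlapping. In both of these genes the region that fell is also on a neighbour. In Solyc02g069790, where both regions belong to 1 gene and lie above the floor, the stronger had 5.90, 6.71 and 5.42 at 42 DPA against 9.28, 9.23 and 9.49 at 39 DPA. The weaker, in the coding sequence, had 2.23, 3.25 and 2.097 at 42 DPA against 1.67, 1.84 and 2.07 at 39 DPA. Their ratio fell by 1.06 on the log2 scale.

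**Figure D5:**
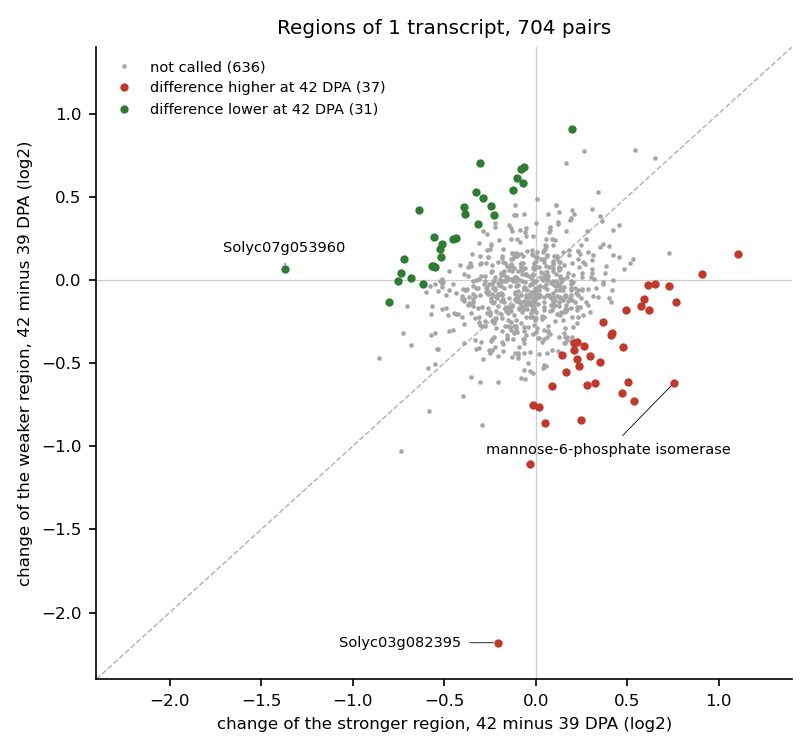
Change of the weaker region against change of the stronger region of a transcript, both 42 DPA minus 39 DPA on the log2 scale, for 704 pairs. Points are pairs, red for the 37 whose difference was called higher at 42 DPA, green for the 31 called lower and grey for the others, and the dashed line marks equal changes. Mannose-6-phosphate isomerase is at 0.76 and −0.62.

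The place of the summit within a region rarely moved. In 8076 regions with 1 summit in each list, the mean summit positions of the stages differed by a median of 4 bp, and by over 50 bp in 26. In 14 of these the 6 positions did not overlap between stages, and in 6 the shift was over 100 bp. The region of Solyc10g054660, Solyc10g054663 and Solyc10g054670 was the 1 of the 6 whose enrichment was also called, at 2.89, 2.90 and 2.54 at 42 DPA against 5.74, 6.72 and 7.05 at 39 DPA. Its input level was 3.76 at 42 DPA and 1.26 at 39 DPA.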

How the data were processed

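The 6 peak lists of wild-type pericarp at 42 and 39 DPA (3 each) were made by the authors from IP and input libraries. The authors trimmed the reads, aligned them to SL3.0 with BWA, kept unique alignments, called peaks with MACS at a false discovery rate under 0.05 and named overlapped genes with PeakAnnotator. In the deposited lists, fold enrichment is a ratio that the authors' MACS runs formed at each summit from IP fragments and background. The deposited −log10 p-values and −log10 q-values come from the authors' MACS runs, under a Poisson model. The deposited peak score served only to check column order. Library depths were not used here. The 6 lists hold 61395 summits on 70344 lines, with a median of 396 to 427 IP fragments per summit, of which 99.7% or more were whole to within 0.1 after recovery. Intervals of counting error were not added to enrichments.

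Log2 enrichment was fitted with limma 3.58.1 in R 4.3.3, 42 DPA minus 39 DPA with no covariate, and called at 1.5-fold with a p-value under 0.05. BH adjustment covered all regions fitted. Other values came from Python 3.11.15, numpy 2.4.6, pandas 2.3.3 and scipy 1.17.1. A test of the input level with limma had been planned and was dropped when the inputs of a stage were found to agree, which was seen in the data, as were the pairs of regions and the GO groups. The recovery and the limma fit were tested on simulated data. Positions are those that most gene-naming lines of a region give. Genes are named only as the lists and the tables of the study describe them. Named regions are the 10 largest changes each way among calls with separate stages, the 5 strongest of a single stage, the genes of the lists, up to 4 regions a GO group and the largest pairs. The members and the lists were chosen with earlier results of these data known. Primers are those of the study, and their place in the genome and the sequence motif were not analysed here.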

Additional observations from a re-analysis of the deposited data

How the results depend on the processing

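The 132 rises and 257 falls became 71 and 136 on log2(fold enrichment + 1), 38 and 61 with only backgrounds above the floor in all 6 lists fitted, 457 and 856 at a BH-adjusted p under 0.05 with no fold minimum, and 11 and 41 at 2-fold. With a single list left out, rises were 115 to 218, falls 173 to 376, regions only at 42 DPA 141 to 235 and regions only at 39 DPA 354 to 519. With 1 list of the other stage allowed, regions only at 42 DPA became 206 and regions only at 39 DPA 537. Left-out lists moved the difference of peaks per list from −474 to between −665 and −272. Pairs with both regions above the floor gave 16 upwards and 7 downwards. Other merging, peak thresholds, mean summits, missing peaks and non-overlap kept the counts within 1.5 times.

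To see whether replicate numbers matched, the deviations of each list from the mean of its stage were correlated between the stages, across regions. Lists of equal replicate number had r = 0.227, 0.337 and 0.0847 in these deviations, and those of unequal number −0.356 to 0.167. The log2 enrichment itself correlated between stages with an r of 0.908 to 0.934. For each list of 42 DPA, the list of equal number gave the highest r. Whether the replicate numbers pair the lists was not tested, and the main fit did not use them. With them as a replicate block, 132 rises and 257 falls were called, all 389 shared. At a BH-adjusted p under 0.05 in limma, 1000 regions were then called in place of 1313. Of 515 values of 36 named regions, 505 kept their sign and side of the threshold, 1 newly passed it (Solyc08g061130, 0.60) and 9 changed sign, all in 3 regions with log2 changes near 0 that were called under no setting. These were FUL2 (0.020 with median centring and −0.19 to 0.17 with a list left out), the SlDML2 coding region at −0.01 (0.049 with median centring and −0.078 to 0.053 with a list left out) and SlALKBH5 (−0.048 to 0.21 with a list left out). A shared input limits all of this, since no list left out tests it, and the floor hides input in 32.4% of shared regions in all 6 lists.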
